A study of Homo sapiens with 9 samples.

Results

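DKK1, FOXQ1 and 8 further genes of WNT feedback were followed through treatment of Huh7 cells, an established human hepatocellular carcinoma line, with PGG. PGG, a glucose molecule carrying galloyl groups, is a plant polyphenol that the study examined for its effect on liver cancer cells. The 10 genes named were DKK1, FOXQ1, AXIN2, LGR5, NKD1, RNF43, ZNRF3, TCF7, LEF1 and NOTUM. A probe set, the group of short oligonucleotides that reads 1 transcript on the array, was taken when the platform annotation paired it with 1 of these symbols and no other. By this rule 17 probe sets of 9 genes were found, out of 54613 probe sets and 19775 genes in all, and TCF7 was not analysed here. The set was chosen by measured values of these arrays, which are not stated further. DKK1 and FOXQ1 are taken here as chosen on their difference between PGG 48 h and PBS 48 h, which an earlier analysis had shown to be among the lowest of all genes. Whether values also led to the choice of the other 8 is not known, so their p-values at 48 h may not be independent of it. The values of DKK1 and FOXQ1 at 48 h are therefore given as a description, with no test.

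There were 9 Affymetrix arrays in 3 groups of 3, which the labels call biological replicates. Cells of the PGG 6 h group received PGG at 0.1 mg/mL for 6 h, cells of the PGG 48 h group received the same dose for 48 h, and cells of the PBS 48 h group received the solvent PBS for 48 h. No PBS array of 6 h was analysed here, so PGG 6 h and PBS 48 h differ in time in culture as well as in treatment, and these 2 parts of a difference cannot be told apart. The sample descriptions of the PBS arrays give 0 h, whereas their titles and the methods give 48 h, which was used.

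In canonical WNT signalling, a secreted WNT protein binds a Frizzled receptor and an LRP co-receptor, the complex that destroys beta-catenin is held back, and beta-catenin enters the nucleus to act with TCF and LEF factors. Many genes that this switches on encode inhibitors of the pathway, so signalling limits itself at several levels. In liver the pathway sets the gene programme of the hepatocytes around the central vein, and it is often active in liver cancer.

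The promoters of the 2 genes with the lowest 48 h differences from PBS are shown, because a motif bound by TCF and LEF factors can be looked for in them. Each is the run of 250 bases before the start of the gene in the RefSeq annotation of GRCh38.p14, on the plus strand, at chr10:52314031-52314280 for DKK1 and chr6:1311848-1312097 for FOXQ1. Capitals mark the core TCF/LEF motif CTTTGA on either strand.
DKK1: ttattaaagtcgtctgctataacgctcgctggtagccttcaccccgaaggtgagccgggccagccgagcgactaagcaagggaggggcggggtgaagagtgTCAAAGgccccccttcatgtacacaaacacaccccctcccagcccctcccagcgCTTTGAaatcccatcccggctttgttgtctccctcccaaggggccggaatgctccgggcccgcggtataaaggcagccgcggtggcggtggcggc
FOXQ1: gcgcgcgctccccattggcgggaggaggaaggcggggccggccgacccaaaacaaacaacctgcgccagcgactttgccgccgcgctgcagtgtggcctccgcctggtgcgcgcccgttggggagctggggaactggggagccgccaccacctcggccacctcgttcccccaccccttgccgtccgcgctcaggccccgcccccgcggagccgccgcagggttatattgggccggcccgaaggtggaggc
The DKK1 promoter held the motif at 2 places, beginning 149 and 95 bases before the start, and a TATAAA beginning 30 bases before it. The FOXQ1 promoter held no CTTTGA on either strand. Of 35116 promoters of this length, 11.2% held the motif and 0.977% held it at 2 or more places, while 10.7% held TATAAA on either strand. Promoters were matched for 5 of the 10 genes, in 7 windows, and the windows of LEF1, RNF43 and TCF7 held no CTTTGA. The matches of CTTTGA and TATAAA did not overlap, and a match is a description of the letters only.

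Values are log2 signals, and levels of different probe sets are not compared. Array medians lay between 5.16 and 5.20. For ACTB, the log2 signal at the 3′ end less that at the 5′ end, which widens as RNA degrades, was 1.13, 1.15 and 1.23 in PGG 6 h and 2.14, 4.03 and 2.67 in PGG 48 h, against 0.96, 1.57 and 1.51 in PBS 48 h. It was widest on PGG 48 h replicate 2, and values without that array are given for the genes with the largest differences. Of 11 markers of liver cells, 10 were measured and all 10 lay above the median of the genes. Among markers of other cells, PTPRC of leukocytes lay between 3.27 and 3.53, while LYZ, another leukocyte marker, lay between 11.8 and 12.26. Of the 2 bile duct markers, KRT19 averaged 8.29 in PGG 6 h and 8.09 in PGG 48 h, against 6.07 in PBS 48 h, and KRT7 averaged 6.66 and 6.73, against 6.75 in PBS 48 h. Of the 5 markers of fibroblasts and stellate cells, LUM averaged 3.00 in PGG 6 h and 6.19 in PGG 48 h, against 2.93 in PBS 48 h. The other members of that list did not follow LUM. At 48 h COL1A1 averaged 7.24 in PGG, against 7.52 in PBS 48 h, COL3A1 3.90 against 4.22, DCN 5.25 against 5.19 and PDGFRB 5.92 against 5.42. The part of these markers in the results was not tested.

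The secreted inhibitors were DKK1 and NOTUM. DKK1 binds the LRP co-receptors and keeps WNT proteins from using them. The DKK1 signal was 7.69, 7.74 and 7.78 in PGG 6 h and 3.88, 4.93 and 4.12 in PGG 48 h, against 8.63, 8.69 and 8.52 in PBS 48 h. No groups overlapped, and the signal was lowest in PGG 48 h, where the arrays also spread most (SD 0.55, against 0.05 in PGG 6 h and 0.09 in PBS 48 h, n = 3 each).

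DKK1 fell by 0.88 at 6 h against PBS 48 h (SE 0.21, 95% interval -1.33 to -0.42), to 54.5% of the PBS signal. The limma adjusted p was 0.0090 over all probe sets. This SE, interval and p rest on a spread pooled over all 3 groups, which was widest in PGG 48 h. The same PBS arrays stand in both comparisons with PBS, so the 6 h p-values of DKK1 and FOXQ1 are not independent of their choice. Fewer cells that express a gene and less of its RNA per cell cannot be told apart in such bulk samples. At 48 h the mean was 4.31 ± 0.55 (SD, n = 3), against 8.61 ± 0.09 in PBS 48 h. This difference of -4.30 left 5.06% of the PBS signal, 19.7-fold lower, and was the lowest of the 19775 genes. The closest PGG 48 h and PBS 48 h arrays were 3.59 apart. Without PGG 48 h replicate 2, the difference was -4.61. The 3 PGG 48 h signals lie below the array medians, and since the deposited values give no detection calls, how near background they lie is not known.

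NOTUM, an enzyme that removes the lipid group WNT proteins need, showed no such difference. Its signal was 6.15, 6.25 and 6.25 in PGG 6 h and 6.25, 6.25 and 6.11 in PGG 48 h, against 6.36, 6.30 and 6.33 in PBS 48 h. Both PGG groups lay just below the PBS arrays, with a gap of 0.05, and neither difference passed the test (-0.11 at 6 h, limma adjusted p = 0.28, and -0.13 at 48 h, limma adjusted p = 0.17).

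At the receptors, the genes were LGR5, ZNRF3 and RNF43. ZNRF3 and RNF43 are ubiquitin ligases that remove Frizzled receptors from the cell surface, and LGR5 is a receptor for R-spondins, which hold these ligases back. ZNRF3 was 7.14, 7.14 and 7.22 in PGG 6 h and 6.02, 6.15 and 5.92 in PGG 48 h, against 7.97, 7.87 and 7.91 in PBS 48 h. The 3 groups did not overlap.

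ZNRF3 fell by 0.75 at 6 h (SE 0.07, limma adjusted p = 2.4e-05), to 59.5% of the PBS signal. At 48 h it fell by 1.89 (SE 0.07, 95% interval -2.05 to -1.73, limma adjusted p = 7.2e-09), to 27% of the PBS signal. The 48 h arrays were also lower than the 6 h arrays, with a difference of -1.14 (limma adjusted p = 3.3e-07). The 48 h difference was -1.95 without PGG 48 h replicate 2.

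LGR5 was read by 2 probe sets. The probe set 213880_at was 5.95, 5.88 and 6.11 in PGG 6 h and 2.72, 3.04 and 3.02 in PGG 48 h, against 5.78, 5.78 and 5.92 in PBS 48 h. PGG 6 h and PBS 48 h overlapped, while PGG 48 h lay 2.74 below the nearest PBS array. The difference at 6 h was 0.15 (limma adjusted p = 0.33), whereas at 48 h LGR5 fell by 2.90 (SE 0.10, 95% interval -3.12 to -2.68, limma adjusted p = 3.2e-09), to 13.4% of the PBS signal. It ranked 24 from the lowest of 19775 genes. Between the PGG groups the signal was lower by -3.05 at 48 h (limma adjusted p = 3.8e-09), and without PGG 48 h replicate 2 the difference from PBS 48 h was -2.96. The 3 low signals lie below the array medians, as those of DKK1 do.

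The other LGR5 probe set, 210393_at, was 4.87, 4.73 and 4.76 in PGG 6 h and 3.58, 4.26 and 4.07 in PGG 48 h, against 4.88, 4.53 and 4.25 in PBS 48 h. PGG 48 h and PBS 48 h overlapped here. The 48 h difference was -0.58 (SE 0.18, limma adjusted p = 0.023). This call was lost without PGG 48 h replicate 1 (-0.39, limma adjusted p = 0.078), without PBS 48 h replicate 1 (-0.42, limma adjusted p = 0.090) and without PBS 48 h replicate 2 (-0.60, limma adjusted p = 0.053). Its 6 h difference was 0.23 (limma adjusted p = 0.43), and it was lower in PGG 48 h than in PGG 6 h by -0.82 (limma adjusted p = 0.0036). The 2 probe sets thus had the same direction at 48 h and unequal sizes.

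RNF43, the partner ligase of ZNRF3, was 6.82, 6.80 and 6.83 in PGG 6 h and 6.55, 6.72 and 6.66 in PGG 48 h, against 6.62, 6.77 and 6.58 in PBS 48 h. The 6 h arrays lay just above the PBS arrays and the 48 h arrays overlapped them. The differences were 0.16 (limma adjusted p = 0.15) at 6 h and -0.01 (limma adjusted p = 0.91) at 48 h.

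**Figure D1:**
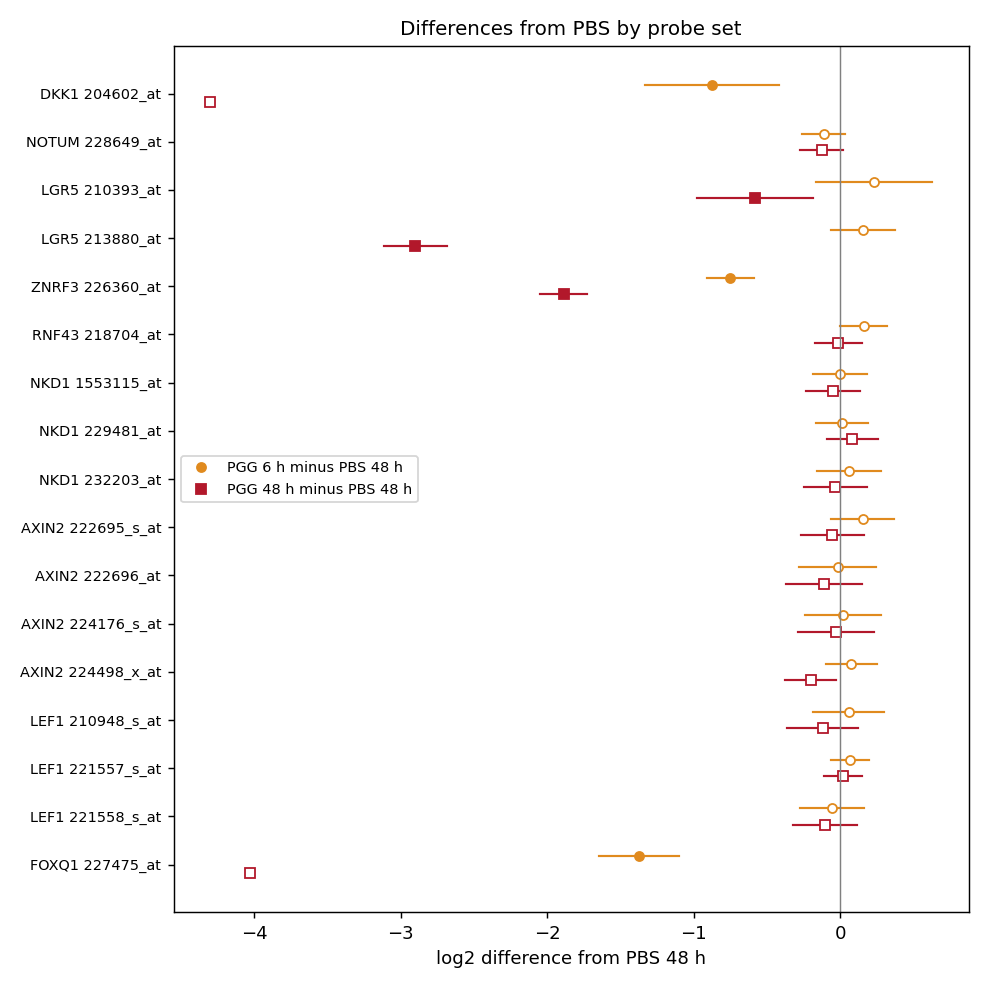
The log2 difference from PBS 48 h (horizontal axis) of each probe set, circles for PGG 6 h and squares for PGG 48 h, with 95% intervals from limma. Filled symbols passed an adjusted p of 0.05, and the open squares of DKK1 and FOXQ1, without intervals, were not tested.

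In the cytoplasm, NKD1 binds Dishevelled, and AXIN2 is a scaffold of the complex that destroys beta-catenin and a widely used readout of WNT activity. None of the 3 NKD1 probe sets was called in either comparison with PBS. Their PGG values ran between 4.81 and 5.48 at 6 h and between 4.65 and 5.57 at 48 h, against 4.81 to 5.41 in PBS 48 h. NKD1 differences were 0.00 to 0.06 at 6 h and -0.05 to 0.08 at 48 h.

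The 4 AXIN2 probe sets ran between 4.66 and 5.90 in PGG 6 h and between 4.32 and 5.87 in PGG 48 h, against 4.65 to 6.08 in PBS 48 h. Their differences from PBS 48 h were -0.02 to 0.15 at 6 h, with limma adjusted p of 0.32 to 0.95. At 48 h they were -0.20 to -0.03, with limma adjusted p of 0.069 to 0.88, and the lowest, 224498_x_at, lay 0.10 below the PBS arrays in all 3 PGG 48 h arrays. That probe set was lower in PGG 48 h than in PGG 6 h by -0.28 (limma adjusted p = 0.017), a call that was lost without PGG 6 h replicate 3 (limma adjusted p = 0.078) and without PGG 48 h replicate 3 (limma adjusted p = 0.067).

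The transcription factors were LEF1 and FOXQ1. LEF1 acts with beta-catenin at WNT target genes. Its 3 probe sets ran between 3.24 and 4.56 in PGG 6 h and between 3.04 and 4.48 in PGG 48 h, against 3.20 to 4.48 in PBS 48 h. The differences were -0.06 to 0.07 at 6 h and -0.12 to 0.02 at 48 h, and none was called.

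FOXQ1, a forkhead factor that in cancer cells has been described as a WNT target, was 9.89, 9.84 and 9.89 in PGG 6 h and 7.30, 7.48 and 6.88 in PGG 48 h, against 11.19, 11.26 and 11.29 in PBS 48 h. The groups did not overlap and the signal was lower at 48 h than at 6 h. FOXQ1 fell by 1.37 at 6 h (SE 0.12, 95% interval -1.65 to -1.10, limma adjusted p = 1.5e-05), to 38.6% of the PBS signal. At 48 h it lay 4.03 below PBS 48 h, or 16.3-fold, at 6.14% of its signal, and it ranked 2 from the lowest of 19775 genes. Without PGG 48 h replicate 2 the difference was -4.16.

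Counted together, 3 of 17 probe sets were lower and 0 higher in PGG 6 h than in PBS 48 h, those of DKK1, FOXQ1 and ZNRF3. This is 17.6%, beside 12.5% of all probe sets called lower and 12.2% called higher. DKK1 and FOXQ1 are among the 3, so this share is not independent of how they were chosen. Among the 15 probe sets tested at 48 h, 3 were lower and 0 higher, both LGR5 probe sets and ZNRF3, which is 20% beside 20.2% of all probe sets called lower and 18.8% called higher. These shares are near the background. The uncalled probe sets at 6 h had differences of -0.11 to 0.23 and at 48 h of -0.20 to 0.08, with 95% intervals inside -0.28 to 0.63 at 6 h and inside -0.37 to 0.26 at 48 h. The cut-off of the study (adjusted p under 0.005 and log2 difference over 1.5) was passed by 0 of 17 probe sets at 6 h, 2 of 15 at 48 h and 1 of 15 between the PGG groups, beside 0.732%, 4.10% and 3.02% of all probe sets. Between the PGG groups, 4 of the 15 were lower in PGG 48 h, or 26.7%, and 0 higher, beside 18.4% of all probe sets called lower and 18.0% called higher. Median differences of the members were 0.02 at 6 h and -0.11 at 48 h, beside 0.00 and -0.02 over all probe sets.

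**Figure D2:**
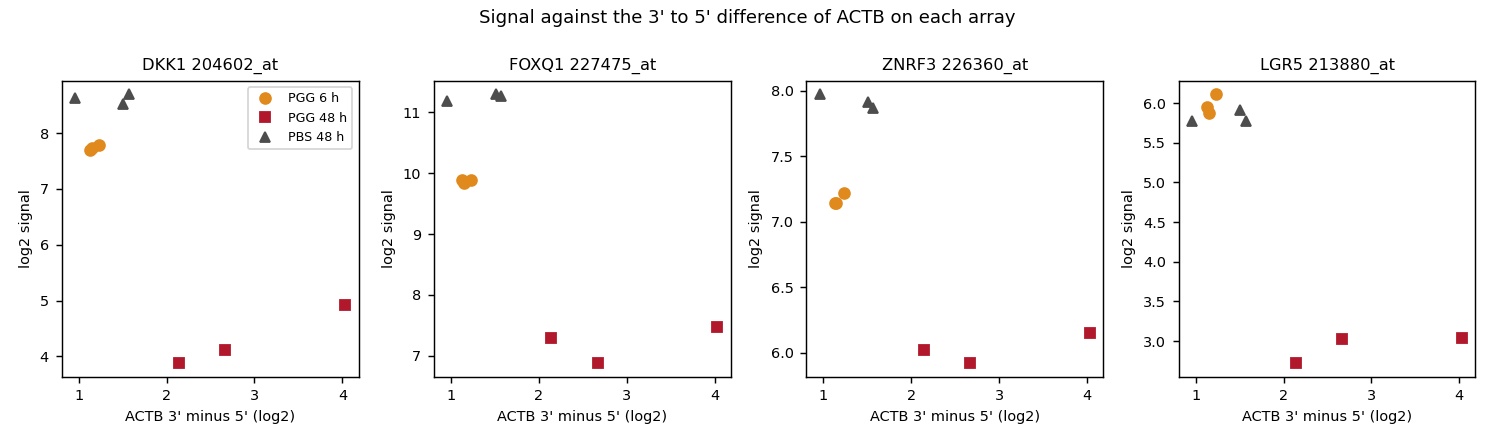
The log2 signal (vertical axis) of DKK1, FOXQ1, ZNRF3 and LGR5 213880_at against the 3′ minus 5′ difference of ACTB (horizontal axis, log2) on each of the 9 arrays, by group. PGG 48 h replicate 2, at 4.03 in ACTB, had the highest signal of the PGG 48 h arrays for each of the 4, and 4.93 for DKK1.

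RNA quality moved with the PGG 48 h group. The array with the widest 3′ to 5′ difference of ACTB was not the array with the lowest signal of DKK1, FOXQ1, ZNRF3 or LGR5, and for those genes it had the highest signal of its group. The part of RNA quality in the differences was not tested.

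The genes whose pattern lay nearest DKK1 were found by the root mean square distance over the 9 arrays, after each gene had its PBS 48 h mean removed. FOXQ1 was nearest, at 0.40, followed by FERMT1 at 0.40, F13B at 0.48, HMGA2 at 0.60 and NT5E at 0.60. For FOXQ1 the nearest were FERMT1 at 0.31, DKK1 at 0.40, F13B at 0.41, SANBR at 0.49 and HLF at 0.51. The differences of FERMT1, which anchors integrins to the cell skeleton, were -1.10 at 6 h and -3.70 at 48 h, and those of F13B, a subunit of a clotting factor, were -0.86 and -3.57. HMGA2, a chromatin protein, had -0.07 at 6 h and -3.74 at 48 h, against -0.88 and -4.30 for DKK1. These distances are descriptions over 9 arrays in 3 groups. They depend on the size of the differences, and DKK1 and FOXQ1 are taken as chosen for theirs at 48 h. Their closeness to each other, and to other genes with large falls, follows in part from that choice. Whether the genes share a regulator was not tested.

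Beyond the feedback genes, 124 genes in 8 lists of the WNT pathway were counted, each read by the probe set of highest mean, and 119 were measured. At 6 h 13 were higher and 25 lower in PGG than in PBS 48 h, or 10.9% and 21%, beside 17.2% and 16.9% of all genes. At 48 h 27 were higher and 26 lower, or 22.7% and 21.8%, beside 23.9% and 24.3%. At the cut-off of the study 3 passed at 6 h and 6 at 48 h, beside 0.890% and 5.20% of all genes. The median over the 119 genes was -0.01 at both times, beside 0.01 and -0.02 over all genes. The same shares of all genes stand beside the counts of single lists below. They were 17.2% higher and 16.9% lower at 6 h, and 23.9% higher and 24.3% lower at 48 h.

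Of the 8 lists, the Frizzled and LRP receptors had the largest share of lower genes. At 6 h 6 of 14 were lower and 4 higher, or 42.9% and 28.6%, beside 16.9% and 17.2% of all genes. At 48 h 7 of 14 were lower and 2 higher, or 50% and 14.3%, beside 24.3% and 23.9%. The list median was -0.09 at 6 h and -0.30 at 48 h. FZD3, a Frizzled receptor, was 7.46 ± 0.05 in PGG 6 h and 6.20 ± 0.22 in PGG 48 h, against 8.25 ± 0.14 in PBS 48 h (SD, n = 3 each). It fell by 0.80 (limma adjusted p = 8.6e-05) and by 2.05 (limma adjusted p = 9.1e-09), and its 3 other probe sets were also lower. FZD6 fell by 1.75 (limma adjusted p = 5.4e-08) at 6 h and fell by 1.44 (limma adjusted p = 5.1e-08) at 48 h. FZD5 fell by 0.40 (limma adjusted p = 6.9e-04) at 6 h, where its other probe set was not called (0.18). At 48 h FZD5 fell by 1.09 (limma adjusted p = 5.7e-08), while its other probe set fell by 0.22. RYK, a WNT co-receptor, fell by 0.64 at 6 h (limma adjusted p = 1.3e-05) and by 0.73 at 48 h (limma adjusted p = 1.5e-06). In the other direction, FZD7 rose by 0.87 at 6 h and 0.66 at 48 h, and FZD1 by 0.57 and FZD4 by 0.55 at 6 h. FZD2 rose by 0.45 at 6 h (limma adjusted p = 0.0038) and by 0.91 at 48 h. Another FZD2 probe set was not called at either time (-0.08 and -0.09).

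Among 18 genes listed as secreted and membrane inhibitors, 2 were higher and 1 lower at 6 h (11.1% and 5.56%). At 48 h 3 were higher and 2 lower (16.7% and 11.1%). The list also holds DKK3, GPC3 and GPC4, whose calls are not read here as those of inhibitors. DKK3, a member of the Dickkopf family, was 6.00 ± 0.05 in PGG 6 h and 7.47 ± 0.17 in PGG 48 h, against 4.94 ± 0.14 in PBS 48 h (SD, n = 3 each). DKK3 rose by 1.06 (limma adjusted p = 3.4e-06) and by 2.53 (limma adjusted p = 6.6e-10), the opposite direction to DKK1, and 3 of its 5 other probe sets were also higher while 2 were not called. GPC4, a cell-surface proteoglycan, rose by 2.30 at 48 h (limma adjusted p = 2.2e-08). TRABD2B, a protease that cuts WNT proteins, fell by 0.85 and by 0.97, with 2 other probe sets not called. SFRP4, a secreted Frizzled-like protein, rose by 0.63 at 6 h and 0.49 at 48 h in 1 of 2 probe sets, and GPC3 fell by 0.45 at 48 h.

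The 20 genes of Dishevelled and the destruction complex had 1 higher and 7 lower at 6 h (5% and 35%). At 48 h 7 were higher and 4 lower (35% and 20%). DVL1, a Dishevelled protein, fell by 0.71 and by 1.11 (limma adjusted p = 5.7e-05 and 4.6e-07). APC, a scaffold of the destruction complex, rose by 0.35 and by 0.98 (limma adjusted p = 0.0031 and 3.5e-07). At 6 h the other APC probe sets were at 0.83 (called higher) and at 0.25, 0.18 and -0.05 (not called). At 48 h another APC probe set was not called (0.13), while the rest were higher. TNKS2, a tankyrase, fell by 1.31 at 6 h (limma adjusted p = 1.9e-06), with 1 of its 3 other probe sets not called (-0.08). At 48 h TNKS2 was higher by 0.31 (limma adjusted p = 0.032), and its 3 other probe sets were not called. CSNK1D, a casein kinase, fell by 0.77 at 6 h, with 1 of 2 other probe sets also lower, and was not called at 48 h (-0.15), where that other probe set was higher (0.45). At 48 h DACT3, which binds Dishevelled, rose by 1.77 in its highest-mean probe set and fell by 0.24 in the other. TNKS rose by 0.90 in 1 of 4 probe sets at 48 h. DVL3 fell by 0.38 at 48 h, and its other probe set was not called (-0.36). AXIN1 fell by 0.32 at 6 h (limma adjusted p = 0.0014) and by 0.37 at 48 h.

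Of 15 nuclear partners of beta-catenin, 1 was higher and 4 lower at 6 h (6.67% and 26.7%). At 48 h 4 were higher and 6 lower (26.7% and 40%). TCF7L1 rose by 1.25 at 48 h (limma adjusted p = 8.4e-07), TLE4 by 0.43 and TLE2 by 0.29. TLE4 had been lower at 6 h in the same probe set (-0.39, limma adjusted p = 0.0050). At 48 h TLE5 fell by 0.80, TLE1 by 0.73 and PYGO2 by 0.59. Other probe sets of TLE1 (0.23), TLE2 (0.16) and PYGO2 (-0.17) were not called at 48 h, while the remaining TLE1 probe sets were also lower. TLE1, TLE2, TLE3 and TLE4 are co-repressors of TCF factors, and TLE5 is not counted among them here. At 6 h TLE3 fell by 0.56, CREBBP by 0.43 and TCF7L2 by 0.39, and CTNNBIP1 rose by 0.29. Other CREBBP probe sets at 6 h were at -0.85 (called) and at 0.02 and -0.06 (not called). At 48 h the direction was the opposite for TCF7L2 (0.20, limma adjusted p = 0.015) and CTNNBIP1 (-0.28, limma adjusted p = 0.0045). The TLE3 probe sets disagreed at 48 h, at -0.50 for that of highest mean and -0.34, 0.87 and 1.11 for the others, all called. Of 18 WNT ligands and release genes, 2 were lower at 6 h (WNT5A by 0.54 and WLS by 0.49), or 11.1%, and 0 higher. At 48 h WNT9B fell by 0.27 and WLS rose by 0.24, or 5.56% each way. The WNT9B means, 2.97 in PGG 48 h and 3.24 in PBS 48 h, lie below the array medians. The limma adjusted p of WLS at 48 h was 0.041 over genes and 0.061 over probe sets. Its other probe sets at 48 h were at 0.25 (called) and 0.03 (not called). None of 6 R-spondins and their receptors was called at either time.

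Other reported WNT targets went both ways, with 5 higher and 4 lower of 18 at 6 h (27.8% and 22.2%). At 48 h 7 were higher and 4 lower (38.9% and 22.2%). MYC fell by 1.79 at 6 h and fell by 1.86 at 48 h, and CCND1, which encodes cyclin D1, fell by 1.77 at 48 h (limma adjusted p = 1.4e-08) and was not called at 6 h in this probe set (-0.26). SOX9 fell by 0.57 and by 0.98. In the other direction TNFRSF19 rose by 2.42 at 6 h (limma adjusted p = 6.3e-08), while its other probe sets rose by 0.47 and 0.32. At 48 h TNFRSF19 was not called in its highest-mean probe set (0.28). MMP7 rose by 0.99 and by 0.77, and PPARD and CD44 rose by 1.34 and by 1.32 at 48 h. PPARD was also higher at 6 h (0.32, limma adjusted p = 0.036). BIRC5 rose by 0.88 at 6 h (at 48 h it was not called, -0.11, and 2 of its 3 other probe sets were lower). VEGFA fell by 0.64 at 6 h and rose by 0.75 at 48 h (limma adjusted p = 2.1e-06), where its 3 other probe sets were also higher. The list of 10 pericentral liver genes had 0 higher and 1 lower at 6 h (0% and 10%). At 48 h 3 were higher and 2 lower (30% and 20%). TBX3 fell by 0.76 and by 0.44, with its other probe sets in part lower and in part not called. At 48 h OAT rose by 0.98, GLUL (glutamine synthetase) by 0.61 and CYP1A2 by 0.40, and RGN fell by 0.43. The other CYP1A2 probe set was not called at 48 h (-0.19).

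**Figure D3:**
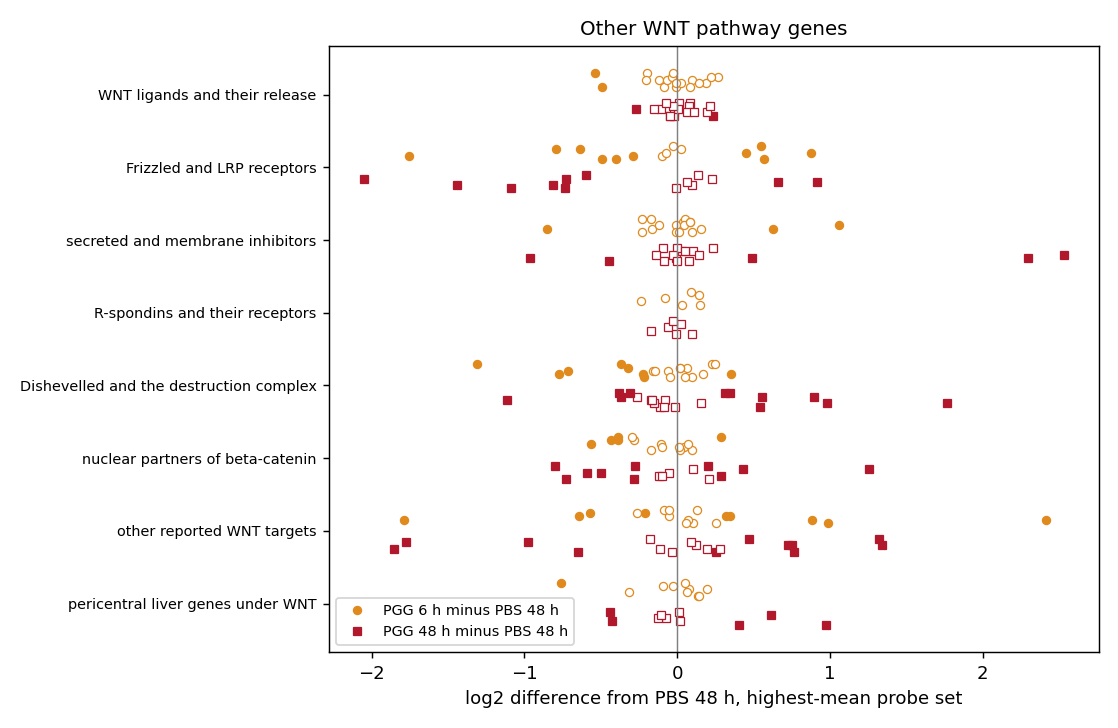
The log2 difference from PBS 48 h (horizontal axis) of 119 genes in 8 lists (vertical axis), circles for PGG 6 h and squares for PGG 48 h, filled where the limma adjusted p was under 0.05. Filled symbols of the Frizzled and LRP receptors lay on both sides of 0 at both times, between -1.75 (FZD6) and 0.87 (FZD7) at 6 h and between -2.05 (FZD3) and 0.91 (FZD2) at 48 h.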

How the data were processed

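Huh7 cells given PGG for 6 h or 48 h, or PBS for 48 h, were profiled on 9 arrays. RMA in Affymetrix Expression Console was used by the authors, and the deposited values are log2 signals, 1 per probe set. No software version was found in the sources used. RMA scales all arrays to 1 distribution, so an overall change in RNA content would not appear. The arrays hold no counts, so precision rests on their number, and how near background a low value lies is not known. All 9 value columns were used, with groups taken from the sample titles.

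Differences were tested with limma 3.58.1 in R 4.3.3 (lmFit with 1 mean per group, eBayes), with Benjamini-Hochberg adjustment over 54613 probe sets or, for the pathway lists, over 19775 genes, each read by the probe set of highest mean. The spread of each probe set was pooled over the 3 groups, so a test between 2 groups also carries the spread of the other. A call is an adjusted p under 0.05. The cut-off of the study, 0.005 and a log2 difference of 1.5, was applied to the limma values. Named were all probe sets of the members, up to 3 higher and 3 lower genes per list and comparison, and the 5 genes nearest DKK1 and FOXQ1. The members and lists were chosen with earlier results of these data known. On data simulated for PGG 48 h against PBS 48 h (54613 probe sets), limma called 23 of 50 changed probe sets at a log2 change of 0.5. It called 49 of 50 at 1, 50 of 50 at 2 and at 3, and 13 of 54413 unchanged ones. The simulation changed few probe sets and gave all groups equal spread, whereas 21323 were called in the data. Its counts need not carry over to the data. The alternatives were other scalings, filters, variance models, a t-test, array weights, a replicate block, the mean of a gene's probe sets and leaving out each array. Promoter sequences came from RefSeq, GRCh38.p14. Scanner files were not analysed here.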

Additional observations from a re-analysis of the deposited data

Results flagged for a closer look

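PGG 48 h and PGG 6 h were also compared directly, and they differed by limma for 4 probe sets among those tested. The 2 groups differ in time in culture as well as in length of exposure, and these cannot be told apart. PGG 48 h lay below PGG 6 h by -3.05 for LGR5 213880_at, by -0.82 for LGR5 210393_at, by -1.14 for ZNRF3 226360_at and by -0.28 for AXIN2 224498_x_at, on the log2 scale. The adjusted p of these differences stood between 3.8e-09 and 0.017. DKK1 and FOXQ1 were left out of this test because of how they were chosen.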

How the results depend on the processing

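Of 665 alternative values of single probe sets, 628 kept their direction and, where tested, their side of the threshold. The 665 leave out the 6 h differences of DKK1 and FOXQ1. They hold the untested differences of DKK1 and FOXQ1 at 48 h from PBS and from PGG 6 h. Those untested values all kept their direction, which follows from how the genes were chosen and is no sign of robustness. At the cut-off of the study 0 instead of 3 feedback probe sets passed at 6 h, where DKK1 (-0.88), FOXQ1 (-1.37) and ZNRF3 did not reach a difference of 1.5, and 1 instead of 4 passed between the PGG groups. With only probe sets above the median, 1 instead of 3 was called at 48 h and 1 instead of 4 between the PGG groups, fewer being tested, and the methods' t-test left 2 of those 4. At the study cut-off 3 instead of 38 pathway genes passed at 6 h and 6 instead of 53 at 48 h. Leaving out each array in turn, called feedback probe sets numbered 3 to 3 at 6 h, 2 to 4 at 48 h and 3 to 4 between the PGG groups, and pathway genes 34 to 45 and 49 to 55. DKK1 at 6 h ran between -0.92 and -0.84 and FOXQ1 between -1.40 and -1.35. The 48 h call of LGR5 210393_at was lost with only the compared groups (limma adjusted p = 0.061) and with the methods' t-test. AXIN2 224498_x_at passed at 48 h with array weights (-0.25, limma adjusted p = 0.034) and without PGG 48 h replicate 2 (limma adjusted p = 0.041). The cause was not tested.

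Values that changed sign were small and uncalled. These were NKD1 229481_at at 6 h (-0.012 with array weights, -0.038 to 0.072 without single arrays), AXIN2 224176_s_at at 48 h (0.035 with array weights, -0.12 to 0.087) and at 6 h (-0.058 to 0.097), RNF43 at 48 h (0.01 with median centring, -0.052 to 0.043), AXIN2 222695_s_at at 48 h (-0.13 to 0.038), AXIN2 222696_at at 48 h (-0.23 to 0.018) and at 6 h (-0.14 to 0.11), LEF1 210948_s_at at 6 h (-0.035 to 0.14), LEF1 221557_s_at at 48 h (-0.0067 to 0.028), NKD1 1553115_at at 48 h (-0.13 to 0.037) and NKD1 232203_at at 48 h (-0.14 to 0.038) and at 6 h (-0.017 to 0.098).

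With the replicate number as a block, 3, 3 and 4 feedback probe sets and 38 and 53 pathway genes were called, as without it, and no call of a feedback probe set changed. Deviations of same-numbered arrays correlated between -0.09 and 0.16, and 6 of 9 arrays correlated best with their own number. Whether the numbers pair the arrays is therefore not settled. Over all probe sets the block moved the calls to 13239 at 6 h and 21284 at 48 h, against 13445 and 21323 without it.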
